A study of Mus musculus with 8 samples.

Results

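The cells described here are stromal cells of the mouse organ of Corti preparation that carried transcripts of Aldh1a2, Ccl11 and genes detected with them. A barcode (the tag of 1 droplet, usually 1 cell) was kept when it had at least 500 detected genes and under 25% of its unique molecular identifiers (UMIs, each a captured transcript) from mitochondrial genes. A kept barcode was counted as a member when at least 3 of the 7 genes Ccl11, Hgd, Aldh1a2, Gpr83, Lmntd1, Slc6a13 and Osr2 had at least 1 UMI and when Ptprc, Pecam1 and Epcam, which mark leukocytes, endothelium and epithelium, had none. This rule found 599 members among 6023 kept barcodes, of 8061 barcodes in 8 libraries. A further 68 kept barcodes had 3 or more of the 7 genes but also a UMI of Ptprc, Pecam1 or Epcam and were left out. Because the rule reads measured values, the levels of its 7 genes in the members are a description.

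The study asked how supporting cells of the organ of Corti respond to forced Atoh1 expression after the onset of hearing. Every animal carried Fgfr3iCre+, a tamoxifen-inducible Cre made in Deiters' and pillar supporting cells, together with Atoh1-HA+, a tagged Atoh1 that Cre switches on, Chrna9-GFP+, a hair cell reporter, and the Cre reporter Rosa26-CAG-loxP-stop-loxP-tdTomato+. Uninduced animals gave 2 libraries at postnatal day 12 (Coch P12) and 1 at day 33 (Coch P33), and animals given tamoxifen at days 12 and 13 gave 3 libraries at day 26 (Coch + Tmx P26) and 2 at day 33 (Coch + Tmx P33). The cochlear lateral wall had been pulled away before dissociation, so its fibrocytes are present only as far as tissue remained. Cre was not directed to stromal cells, and tamoxifen reached all cells of the induced animals, so that age and tamoxifen cannot be told apart between P12 and P26. In this account the 6 libraries of P26 and P33 are called the later libraries, and the labels do not tie libraries to animals, so p-values measure only the spread between libraries, which may be technical.

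Libraries held 3972800 to 13423524 UMIs, and no pair of libraries shared more than 3 barcodes, with 1 barcode shared among the members. Atoh1, the induced gene, stood at 175 and 90.5 counts per 1000000 UMIs (CPM) over kept barcodes in Coch + Tmx P26 replicates 1 and 2 and at 524 and 415 CPM in Coch + Tmx P33. In the library labelled Coch + Tmx P26 replicate 3 it stood at 12.3 CPM, under the 17.5 to 23.7 CPM of the 3 uninduced libraries. That library also held the most members of any later library. Counts of genes past a test's threshold are given with and without it, and most single genes are not. Without it, 14 of 52 named or listed age genes that could be fitted lost their call. For Coch + Tmx P33 against Coch + Tmx P26, 8 of 17 named or listed genes did. Members had 138 Atoh1 UMIs in all, 14 or fewer in each induced library and 38, 34 and 18 in the uninduced ones.

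Aldh1a2 oxidises retinal to retinoic acid, the ligand of the RAR nuclear receptors, and in the mature brain coverings it is a known product of leptomeningeal fibroblasts. Ccl11 is the chemokine eotaxin, which attracts eosinophils through Ccr3. Fibroblasts of the cochlea and its bony surroundings lay down collagens and the proteoglycans that space collagen fibrils, and much of this matrix is built in the first postnatal weeks.

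Members made up 8.90% and 8.17% of kept barcodes in Coch P12 and 14.6% in Coch P33. Among the induced libraries they made up 5.12%, 10.7% and 19.8% at P26 and 9.56% and 7.25% at P33. The lowest share had an exact (Clopper-Pearson) 95% interval of 3.70 to 6.88% and the highest one of 16.7 to 23.3%, so the replicates of Coch + Tmx P26 differed by more than counting error. Mean shares were 8.54% ± 0.51 (SD, n = 2) at P12 and 11.2% ± 5.32 (SD, n = 6) later, and the ranges overlapped. The difference of 2.65 percentage points had p = 0.571 in a two-sided exact permutation test, which could not go below 0.0357 here. Without the library labelled Coch + Tmx P26 replicate 3 the difference was 0.92 points.

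Depth bears on these shares, because a deeper barcode more easily shows 3 of 7 genes. The median member had 9127 and 9160 UMIs at P12 and 3318.5 to 6518 later. After every barcode was thinned to 2000 UMIs, members were 2.24% and 1.93% of barcodes at P12 and 2.25% to 9.32% later (2.09% ± 0.22, n = 2, against 5.36% ± 2.32, n = 6, exact permutation p = 0.143). The groups then only just failed to overlap, since 31 of 1382 barcodes in Coch P12 replicate 1 and 18 of 801 in Coch + Tmx P26 replicate 1 gave nearly equal shares, and 41 barcodes of Coch + Tmx P26 replicate 2 were too shallow to be thinned. Thinning to 1000 UMIs gave means of 0.63% at P12 and 1.66% later (exact permutation p = 0.214). Thinning to 4000 UMIs, which left out shallower barcodes, gave 4.65% and 7.74% (exact permutation p = 0.571). The groups overlapped at both of these depths. A further gate needed at least 3 of the 6 genes other than Hgd, the gene that differed most with age. It gave 8.09% at P12 and 8.80% later (exact permutation p = 0.929). That gate used all UMIs, and the thinned gates still counted Hgd, so no setting removed the differences in depth and in Hgd together.

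**Figure D1:**
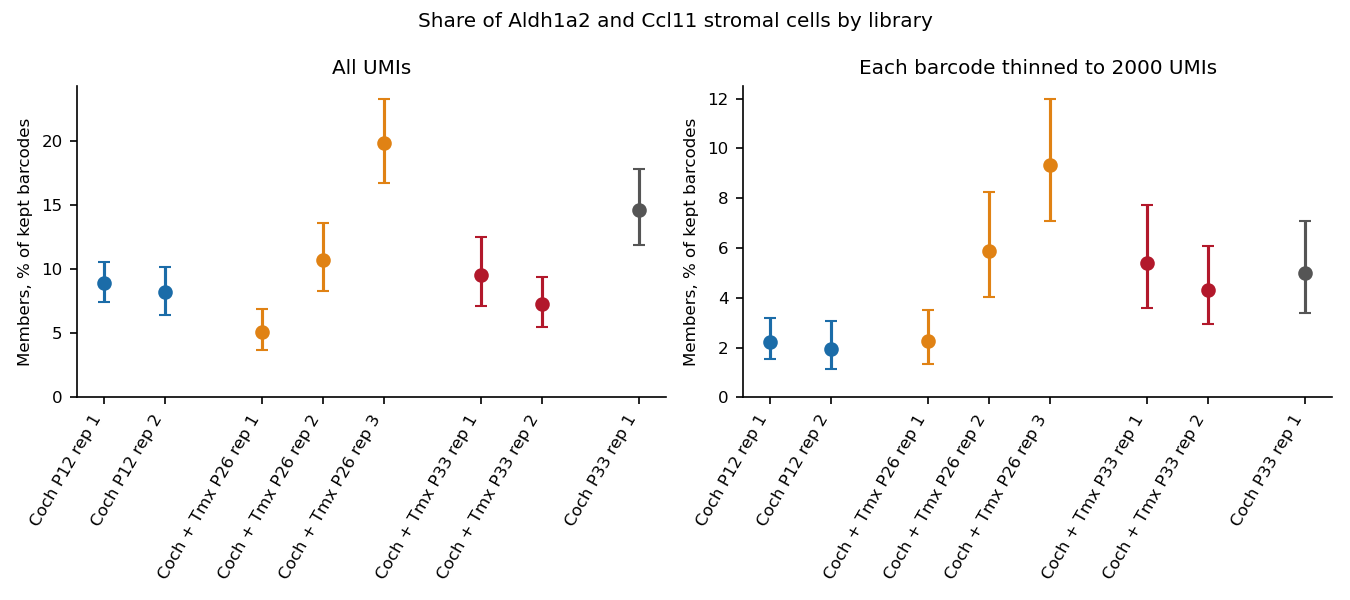
Members as a percentage of kept barcodes in each library (vertical axis), with all UMIs on the left and after thinning each barcode to 2000 UMIs on the right, with exact 95% binomial intervals that cover counting error only. Shares ran from 5.12 to 19.8% before thinning and from 1.93 to 9.32% after it.

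The 7 genes of the rule were unevenly shared among members. Ccl11 (chr11:82057832-82062955, mouse build GRCm38.p6) had a UMI in 90.0% of members and Aldh1a2 (chr9:71215789-71296243) in 84.5%, and 454 members (75.8%) had both. Osr2 (chr15:35296098-35303305), a zinc-finger transcription factor of mesenchyme, was seen in 66.4%. Hgd (chr16:37579742-37632026), homogentisate dioxygenase of tyrosine breakdown, was seen in 54.4%. Lmntd1 (chr6:145389314-145450767), a lamin-tail domain protein, was seen in 42.2%, Slc6a13 (chr6:121300288-121337721), the GABA and taurine transporter GAT2, in 34.7% and Gpr83 (chr9:14859880-14870789), a G protein-coupled receptor, in 30.1%. Droplets also catch free RNA, so the same shares were taken in 449 barcodes with macrophage markers. These had a UMI of Ptprc and 3 or more macrophage UMIs, and their median depth was 6665 UMIs against 5870 in members. There the shares were 7.13% for Ccl11, 4.23% for Aldh1a2, 2.45% for Osr2, 4.90% for Hgd, 0.891% for Lmntd1 and Gpr83 and 3.79% for Slc6a13. Barcodes with 3 or more of the 7 genes were not left out of these 449, which can raise the shares. They were left out of the macrophage barcodes whose CPM is given further on.

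Members were not the only source of these transcripts. They held 82.3% of all Gpr83 UMIs in kept barcodes and 72.7% of those of Lmntd1, but 48.4% of those of Ccl11 and 47.8% of those of Slc6a13. Of the 599 members, 250 had 3 of the 7 genes, 179 had 4, 100 had 5, 46 had 6 and 24 had all 7. The median depth was 5238, 4683, 6883, 10053 and 15807 UMIs in members with 3, 4, 5, 6 and 7 of the genes, and 6113 UMIs in barcodes with 2. Members with 5, 6 or 7 genes were thus deeper at the median than barcodes with 2, and members with 3 or 4 were not.

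Just outside the rule lay 412 barcodes with 2 of the 7 genes. Over these barcodes Dcn, a collagen-binding proteoglycan the rule did not use, had 962 CPM, against 1865 CPM in members with 3 genes, 3930 with 4 and 5512 with all 7. Itih5, a hyaluronan-binding protein, had 636 CPM just outside and 969 CPM just inside, and Cldn11, a tight junction protein, 402 and 765 CPM. Otor, a secreted protein of cochlear fibrocytes, went the other way, from 3587 CPM just outside to 2390 CPM with 3 genes, 1064 with 4 and 111 with 7. Rarres1, a retinoic acid responsive gene, went from 3527 CPM just outside to 2221 with 3 genes and 67.4 with 7. Members with 3 genes thus carried both Dcn and Otor at levels between those of the barcodes on either side.

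**Figure D2:**
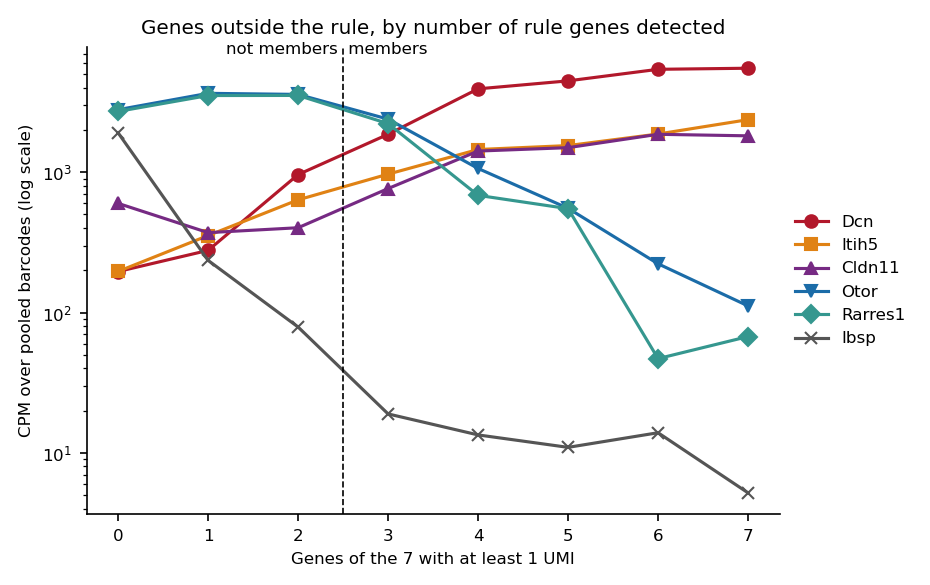
CPM on a log scale (vertical axis) of 6 genes that are not in the rule, over pooled barcodes grouped by how many of the 7 rule genes had a UMI (horizontal axis), with the dashed line at the rule's threshold. Dcn, Itih5 and Cldn11 were higher on the members' side, and Otor, Rarres1 and Ibsp lower.

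Members with over 20 UMIs of Otor and Rarres1 together per 10000 were 17.1% and 9.72% of members at P12 and 5.77 to 22.0% later, 67 in all. Members with over 10 UMIs of Dcn per 10000 were 62.6% and 55.6% of all members at P12 and 75.6 to 92.3% later. At least 1 UMI of both Otor and Rarres1 was found in 28.9% of members, which were 8.77% of all barcodes with both, and in 50.1% of the other stromal barcodes defined next. Members with at least 2 of Fst, Inmt and Dpep1 were 4.01% and those with both Notum and Npy 6.51%.

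To show what sets the members apart, their summed UMIs were compared library by library with 1037 other stromal barcodes. These passed the same filters and had at most 1 of the 7 genes and no Ptprc, Pecam1 or Epcam. They also had a UMI of at least 3 of the 6 general stromal genes Dcn, Col1a2, Col3a1, Lum, Ogn and Pdgfra. This class could therefore hold transcripts of a rule gene. Among 6502 genes with at least 20 CPM in either class, 419 (6.44%) were higher in members in 8 of 8 libraries and 563 (8.66%) were lower in all 8, and no test was made because the classes were chosen on these cells. Dcn (chr10:97479500-97518163) averaged 4317 ± 2444 CPM (SD, n = 8) in members and 632 ± 385 CPM in the other stromal barcodes and was found in 92.3% and 58.6% of them. The label's marker Dcn therefore held for the members as a whole, while the other 5 markers were in the rule.

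The genes named next are from the 20 with the highest ratios among those higher in all 8 libraries. Nrxn3, a synaptic adhesion protein, had 60.4 ± 19.7 CPM in members against 4.39 ± 4.39, a ratio of 13.8. Ramp3, which pairs with the calcitonin receptor-like receptor, had 51.8 against 4.67 CPM and Met, the receptor of hepatocyte growth factor, 142 against 24.0 CPM. Cldn11 had 1383 ± 417 against 285 ± 212 CPM and Itih5 1493 ± 407 against 312 ± 92.2 CPM. Slc1a3, the glutamate and aspartate transporter GLAST, had 792 ± 160 against 209 ± 55.9 CPM. The ranges over libraries did not overlap for Nrxn3, Ramp3, Met, Itih5 and Slc1a3 but did for Cldn11.

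Of 6 osteoblast genes over the level, 4 were lower in members in all 8 libraries and none higher, and of 15 cochlear fibrocyte genes 7 were lower and 3, Kcnk2, Cav1 and Tbx18, higher. Ibsp, bone sialoprotein, had 10.7 CPM in members and 1406 CPM in the other stromal barcodes, Dmp1, a matrix protein of osteocytes, 10.6 and 425 CPM, and Mgp, which inhibits calcification, 20.3 and 925 CPM. Fst, the activin inhibitor follistatin, had 34.1 and 616 CPM, and Gdf10, a BMP family ligand, 6.73 and 140 CPM. The other stromal barcodes therefore hold bone transcripts, and these ratios describe that class as much as the members.

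Gene lists gave a mixed picture of the members' kind. Of 13 retinoid genes over the level, Rdh10, which makes retinal, and Crabp2, which carries retinoic acid to its receptors, were higher in members in all 8 libraries (22.4 against 8.06 CPM and 64.4 against 21.4 CPM), and Dhrs3, which reduces retinal back to retinol, and Rxra were lower (88.1 against 296 CPM and 19.3 against 41.7 CPM). The other 9 did neither. Of 14 leptomeningeal fibroblast genes over the level, Igfbp2, Dpp4, Crabp2 and Col15a1 were higher in all libraries and 6 were lower. Slc47a1 and Lmx1b had no UMI in any member. Of 21 transcription factors of mesenchyme, Prrx1, Nr2f2, Tbx18 and Nr2f1 were higher in all 8 libraries and 3 were lower, and of 9 small leucine-rich proteoglycans Dcn was higher and 6 were lower. Tbx18, which is needed for the fibrocytes of the otic mesenchyme, averaged 426 ± 76.8 against 228 ± 53.1 CPM.

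Transcripts of other cell types were present at uneven levels. Summed CPM of 9 macrophage markers ran from 93.0 to 245 in 6 libraries and reached 2197 and 3503 in Coch + Tmx P33, and 66 members had 3 or more macrophage UMIs. These were 7.32% and 30.6% of members at P12, 3.28 to 9.40% at Coch + Tmx P26, 14.6% and 15.4% at Coch + Tmx P33 and 5.88% at Coch P33. Epithelial markers summed to 34.2 to 98.5 CPM with Cldn4 at 0, and hair cell markers to 2.0 to 32.3 CPM with Tmc1 at 0. Endothelial markers summed to 770 to 1615 CPM, nearly all from Emcn. Schwann cell markers ranged from 47.6 to 1552 CPM and erythroid genes from 1318 to 17189 CPM. Chondrocyte markers summed to 353 and 577 CPM at P12 and 25.5 to 82.6 CPM later, without overlap.

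The members' expression at P12 was then compared with the later ages, on UMIs summed over the members of each library. Of 7937 genes tested with edgeR's quasi-likelihood test, 160 (2.02%) passed an adjusted p of 0.05, of which 85 (1.07%) were higher and 75 (0.945%) lower at the later ages. Groups did not overlap for 82 and 73 of these, against 13% of all genes tested. Among the lists, 6 of 12 collagens fell and none rose, while 5 of 8 small leucine-rich proteoglycans, 4 of 7 complement genes and 4 of 9 MHC class I genes rose. Without Coch P12 replicate 1, which left 1 library at P12, 22 genes passed (2 higher, 20 lower), and without the library labelled Coch + Tmx P26 replicate 3 84 did (43 and 41).

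The 7 rule genes were each tested in members chosen by at least 3 of the other 6. Hgd had 9.65 and 11.9 CPM in the Coch P12 libraries, 200, 233 and 237 CPM in Coch + Tmx P26, 158 and 160 CPM in Coch + Tmx P33 and 147 CPM in Coch P33. Every later library was thus far above both P12 libraries, and Coch P33, which had no tamoxifen, lay with the induced ones. The log2 fold change was 4.21 (SE 0.33, edgeR adjusted p = 2.1e-05), and it lay between 3.98 and 4.39 when each library was left out in turn, with no adjusted p above 0.00208, although leaving out a P12 library leaves 1 there that is assumed to vary like the others. Hgd had a UMI in 9.40% and 11.8% of such members at P12 and in 53.1 to 75.8% later, although the P12 members were deeper. Of the other genes of tyrosine breakdown, Gstz1 alone was tested in all members, with a log2 fold change of -0.16 (adjusted p = 0.878), and Tat had no UMI.

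Slc6a13 had 23.4 and 12.7 CPM at P12, 30.9, 115 and 92.2 CPM in Coch + Tmx P26, 55.3 and 55.8 CPM in Coch + Tmx P33 and 52.4 CPM in Coch P33. Its groups did not overlap and it rose by 1.99 on the log2 scale (SE 0.42, edgeR adjusted p = 0.0259), but the call was lost without Coch P12 replicate 1 (adjusted p = 0.180), without Coch P12 replicate 2 (0.116) and without the library labelled Coch + Tmx P26 replicate 3 (0.0615). Ccl11 had 344 and 635 CPM at P12 and 452 to 1060 CPM later (log2 fold change 0.56, SE 0.33, adjusted p = 0.456), and the fold change was 0.12 without Coch P12 replicate 1 and 1.14 without replicate 2, neither past the threshold. Aldh1a2 had 240 and 301 CPM at P12 and 230 to 375 CPM later (0.13, SE 0.24, adjusted p = 0.857). These overlapping ranges left no difference that the test could call for the pair of genes that name the cells. Osr2 (-0.31, adjusted p = 0.621), Lmntd1 (0.68, 0.453) and Gpr83 (0.14, 0.923) did not pass either.

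**Figure D3:**
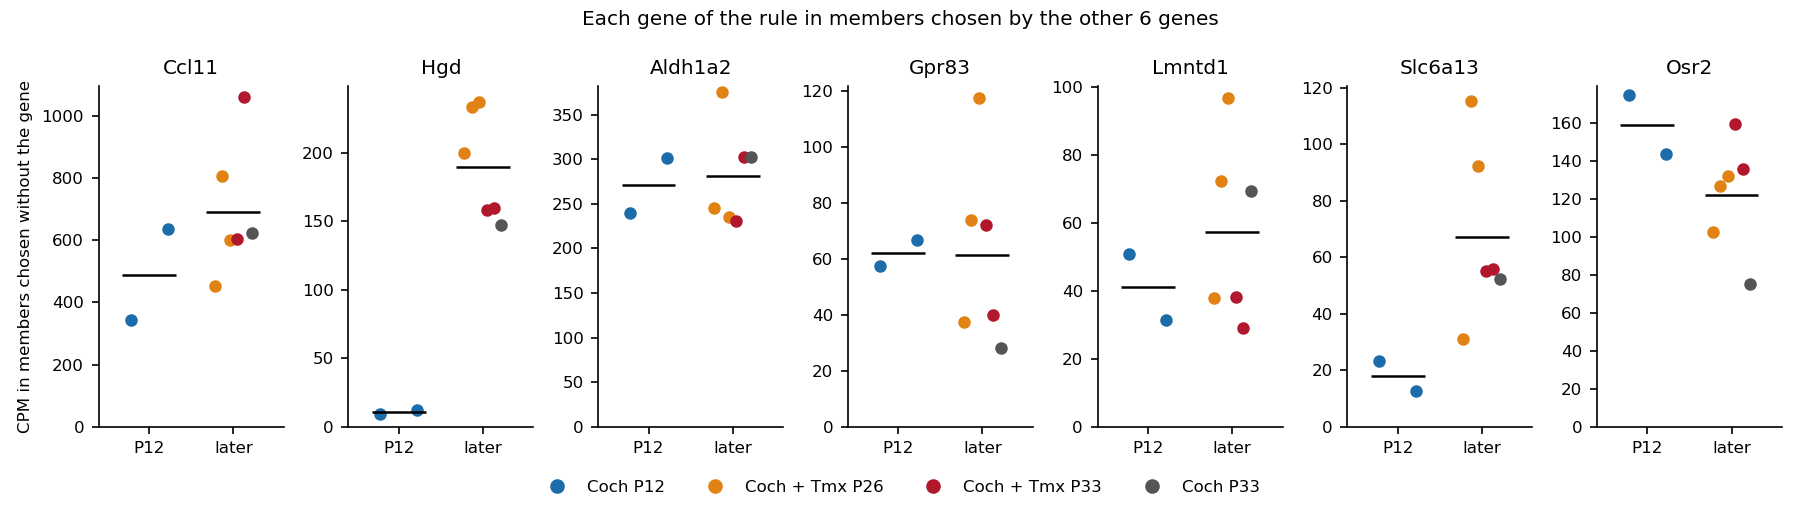
CPM (vertical axes, from 0) of each rule gene in members chosen by at least 3 of the other 6 genes, with 1 point per library coloured by group and a line at the mean of the 2 Coch P12 and of the 6 later libraries. Hgd lies at 9.65 and 11.9 CPM at P12 and at 147 to 237 CPM later, while Aldh1a2 overlaps.

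Of 12 collagen genes tested, 6 were lower at the later ages and none higher, with a median log2 fold change of -1.40 against 0.00 over all genes. Col1a2, a chain of type I collagen, had 1487 and 1778 CPM at P12, 610, 566 and 370 CPM in Coch + Tmx P26, 396 and 316 CPM in Coch + Tmx P33 and 292 CPM in Coch P33. It fell by 1.87 on the log2 scale (SE 0.25, adjusted p = 0.00132) and was called in every alternative run. Its partner chain Col1a1 was listed at 0 to 2.95 CPM in all libraries and was not tested. Col15a1, a basement membrane collagen, had 275 and 227 CPM at P12 and 20.1 to 61.7 CPM later, and it also fell in every alternative (-2.62, SE 0.27, adjusted p = 0.000249). Col3a1 had 384 and 375 CPM at P12 and 49.5 to 171 CPM later (-1.48, adjusted p = 0.0225), Col5a2 68.3 and 47.5 CPM and 7.42 to 18.1 CPM (-2.29, adjusted p = 0.0013). Col11a1 (-3.32) and Col13a1 (-1.63) were the other 2.

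Transcripts of some collagens, including the chondrocyte markers Col2a1 and Col9a1, which are not in the list above, were also frequent in barcodes of another cell type at P12. In 129 macrophage barcodes of P12, Col2a1, the cartilage collagen, had 286 CPM and Col9a1 had 90.6 CPM, which were 85.5% and 70.0% of the 335 and 129 CPM in members at P12. Their falls in members (Col2a1 -3.12, adjusted p = 0.000249, and Col9a1 -4.50, adjusted p = 0.000249) start from levels close to those of another cell type and are not read as expression by members. The same share was 69.5% for Col13a1 and 44.7% for Col11a1 but 25.2% for Col1a2, 5.03% for Col3a1 and 3.80% for Col15a1. Of the 75 genes that fell, 54 had a macrophage level under 50% of the members' at P12, and of the 85 that rose 51 had one under 50% later, a split chosen after seeing the data that also sets aside genes macrophages make themselves.

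Matrix genes other than collagens were counted as 1 list, and Nrep is named by rule. Nrep, a neuronal regeneration protein also made by fibroblasts, had 583 and 529 CPM at P12, 36.9, 82.6 and 72.4 CPM in Coch + Tmx P26, 47.0 and 47.2 CPM in Coch + Tmx P33 and 64.2 CPM in Coch P33 (-3.10, SE 0.24, adjusted p = 2.44e-05, called in every alternative). Fbn2, the fibrillin of growing tissue, had 86.4 and 80.7 CPM at P12 and 16.6 to 29.7 CPM later (-1.88, adjusted p = 0.00117), and the microfibril protein Mfap2 348 and 395 CPM and 114 to 183 CPM (-1.22, adjusted p = 0.00531). Postn, periostin, had 42 and 17 UMIs (28.1 and 16.1 CPM) at P12 and none in any later library, so it was at least 25.05-fold lower against a floor of 3 UMIs over the later libraries. Of 17 genes of elastic fibres and matrix glycoproteins, Fbn2, Mfap2 and Postn fell and Efemp1 rose.

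In the IGF axis, which carries growth signals, 3 of 11 tested genes fell and none rose. Igfbp3 had 29.5 and 117 CPM at P12 and 0 to 14.5 CPM later (-3.90, SE 0.60, adjusted p = 0.00363), Igfbp5 1641 and 1135 CPM and 366 to 901 CPM (-1.23, adjusted p = 0.0294). Igf1 had 445 and 275 CPM at P12 and 44.2 to 124 CPM later (-2.02, adjusted p = 0.00247), and macrophage barcodes of P12 had 566 CPM of it. Mest was the only one of 11 imprinted growth genes called (-1.49, adjusted p = 0.0378). The fibrocyte gene Otor fell from 2313 and 1507 CPM to 679 to 1087 CPM (-1.01, adjusted p = 0.0313), alone among 15 cochlear fibrocyte genes. Members with only 3 of the 7 rule genes, which had the most Otor, were 60 of 123 and 42 of 72 at P12. They were 21 of 41, 22 of 61 and 29 of 117 in Coch + Tmx P26, 19 of 48 and 26 of 52 in Coch + Tmx P33 and 31 of 85 in Coch P33. How far this mix bears on the fall of Otor was not tested. Cpz, a secreted carboxypeptidase, C1qtnf6, the WNT-induced Wisp1, Fxyd5 and AI593442 completed the 12 with the largest falls, with P12 means of 50.4, 60.6, 129, 87.3 and 50.7 CPM and later means of 4.84, 12.6, 30.0, 20.6 and 11.7 CPM. Macrophage barcodes of P12 had 81.1 CPM of Wisp1 and 201 CPM of Fxyd5, which were 62.8% and 230.4% of the members' means there.

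The small leucine-rich proteoglycans, which bind collagen fibrils and set their width, moved upward. Of 8 tested, Dcn, Bgn, Ogn, Omd and Prelp rose and Chad fell, with a median log2 fold change of 1.57. Dcn had 1316 and 1408 CPM at P12, 4172, 5932 and 5179 CPM in Coch + Tmx P26, 3503 and 8824 CPM in Coch + Tmx P33 and 4204 CPM in Coch P33. All later libraries lay above both P12 libraries, and the log2 fold change was 2.05 (SE 0.33, adjusted p = 0.00494). Macrophage barcodes had 16.2 CPM of Dcn at P12 and 41.6 CPM later. Prelp had 44.9 and 40.8 CPM at P12 and 104 to 167 CPM later (1.83, SE 0.24, adjusted p = 0.00134), and Bgn 88.4 and 127 CPM and 213 to 312 CPM (1.32, adjusted p = 0.0153). Ogn had 8.04 and 44.6 CPM at P12 and 96.5 to 330.3 CPM later (2.80, adjusted p = 0.0232).

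The share of Dcn-rich members was also higher later, as given above, and whether this accounts for the rise of Dcn per summed UMI was not tested beyond leaving cells out. Without the 67 members rich in Otor and Rarres1, 43 of the 50 named or listed age genes that could be fitted were still called and none reversed.

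**Figure D4:**
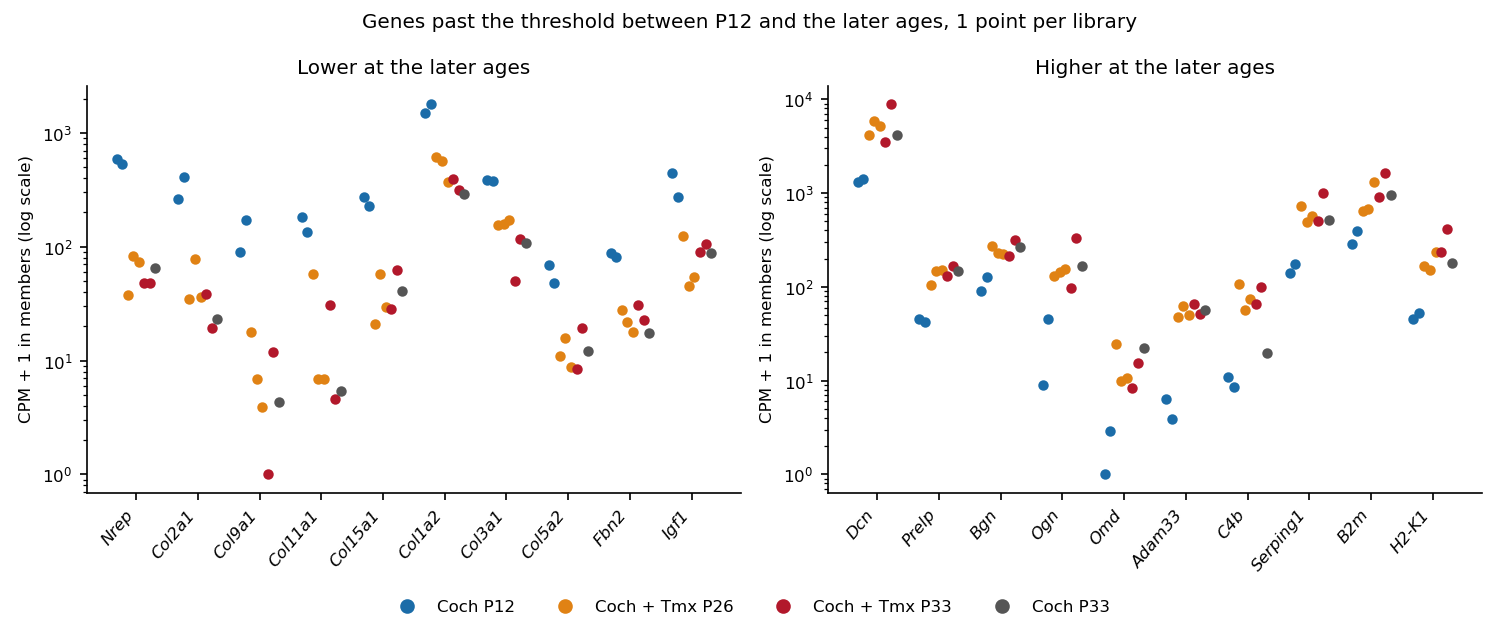
CPM + 1 on a log scale (vertical axes) in members for 10 genes that fell and 10 that rose at the later ages, with 1 point per library coloured by group. The 2 Coch P12 points lie above all later points on the left and below them on the right.

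Complement genes rose in 4 of 7 tested (C1ra, C2, C4b and Serping1) and fell in none. Serping1, the C1 inhibitor, had 141 and 176 CPM at P12, 724, 489 and 563 CPM in Coch + Tmx P26, 499.7 and 1002 CPM in Coch + Tmx P33 and 516 CPM in Coch P33 (2.08, SE 0.32, adjusted p = 0.00384). C4b had 10.0 and 7.59 CPM at P12 and 18.8 to 107 CPM later (2.96, adjusted p = 0.00998), beside 36.9 CPM in later macrophage barcodes, and C2 24.8 and 20.9 CPM and 69.3 to 163 CPM (2.21, adjusted p = 0.0058). Reads of C1ra cannot be told from those of its near-identical copy C1rb with certainty. Apod, a lipid carrier of nerve and fibroblasts, had 1760 and 4456 CPM at P12 and 7987 to 17560 CPM later (1.96, SE 0.39, adjusted p = 0.0185).

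MHC class I genes rose in 4 of 9 tested, B2m, H2-D1, H2-K1 and H2-Q4, with a median log2 fold change of 2.25. H2-D1, an antigen-presenting chain, had 123 and 142 CPM at P12, 596, 409.8 and 619 CPM in Coch + Tmx P26, 455 and 955 CPM in Coch + Tmx P33 and 514 CPM in Coch P33 (2.25, SE 0.34, adjusted p = 0.00351). B2m, the shared light chain, had 287 and 398 CPM at P12 and 650.1 to 1648 CPM later (1.68, adjusted p = 0.037). Macrophage barcodes had 1721 and 2651 CPM of H2-D1 and 3336 and 4461 CPM of B2m at P12 and later, and H2 genes share near-identical stretches, so their split among copies is uncertain. Leaving out the 66 members with macrophage transcripts kept the call for 47 of 52 named or listed age genes that could be fitted. That count pools all lists and does not say which MHC class I genes kept theirs.

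Interferon-response genes spread widely among the later libraries. Of 21 tested, Ifi27l2a, Ifitm3 and Rtp4 passed, none fell, and the median log2 fold change was 3.49. Summed over the list they stood at 2670 and 3256 CPM at P12, 9245, 5885 and 9317 CPM in Coch + Tmx P26, 6201 and 17974 CPM in Coch + Tmx P33 and 4546 CPM in Coch P33. Coch + Tmx P33 replicate 2 was thus well above the rest, and Coch P33 was the lowest later library. Isg15, a ubiquitin-like protein, had 1.34 and 7.59 CPM at P12, 141, 100.2 and 173 CPM in Coch + Tmx P26, 81.6 and 1746 CPM in Coch + Tmx P33 and 16.6 CPM in Coch P33, which missed the threshold (6.51, SE 1.83, adjusted p = 0.107). Rtp4 had 3 UMIs at P12 and 293 later, a ratio of CPM of 76.7 with a counting interval of 25.99 to 374. Ifitm3, which blocks virus entry, had 825 and 963 CPM at P12 and 1462 to 5851 CPM later (1.89, adjusted p = 0.0466). Later macrophage barcodes had 1608 CPM of Ifitm3, 164 CPM of Rtp4 and 1749.9 CPM of Ifi27l2a, against means of 3116, 110.2 and 233 CPM in later members.

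Promoter stretches of 5 genes were chosen to show the letters to which interferon-activated factors are known to bind. Of these genes Ifitm3 and B2m passed with age, and Isg15, Ifit1 and Ifit3 did not, while Rtp4 and Ifi27l2a were not among the windows used here. The windows, from RefSeq on GRCm38.p6, run from 250 bases before to 50 after each start, and capitals mark GAAA, any 2 bases and GAAA again, on either strand, with overlapping matches merged. The sequences are, 5′ to 3′ on the gene's strand, from chr4:156200872-156200899 (minus), chr19:34583364-34583391 (plus), chr19:34640776-34640803 (plus), chr7:141010716-141010742 (minus) and chr2:122147539-122147566 (plus):
Isg15: tagGAAAAGGAAACCGAAACAGAAAata
Ifit3: agtggtaagTTTCACTTTCctcttctgg
Ifit1: aggcttcagTTTCACTTTCcagtctcag
Ifitm3: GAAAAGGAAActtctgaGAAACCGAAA
B2m: taagaacatGAAACTGAAAatgggaaag
The letters were found in 3.44% of all 32851 windows, in at least 1 window of 3.99% of all 27025 genes, of 10 of 17 interferon-response genes with a window and of 2 of 10 MHC class I genes, and in none of the windows of the collagens and small leucine-rich proteoglycans. A match describes the window and says nothing of binding in these cells.

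**Figure D5:**
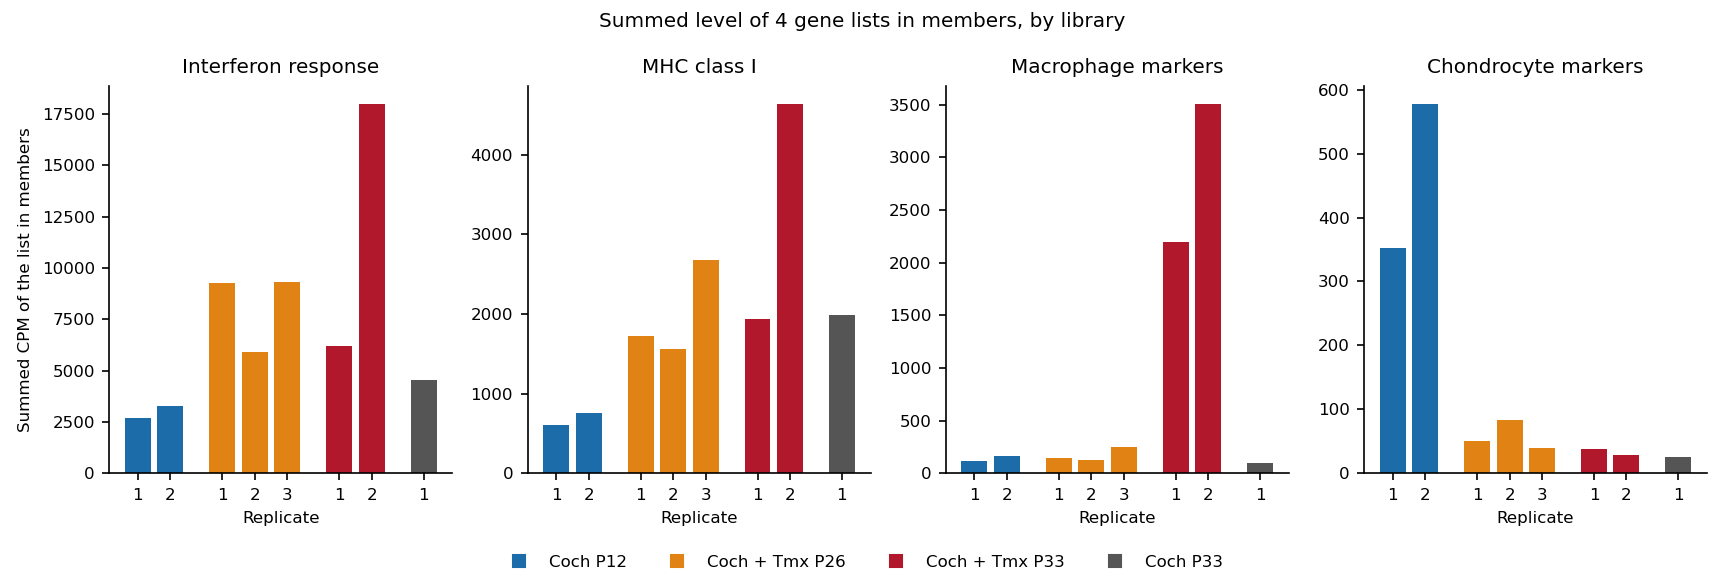
Summed CPM in members of the interferon-response, MHC class I, macrophage and chondrocyte lists (vertical axes, from 0), with 1 bar per library coloured by group. Interferon-response and macrophage sums peak in Coch + Tmx P33 replicate 2, at 17974 and 3503 CPM, and chondrocyte sums at P12.

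The remaining large rises were of varied function. Adam33, a metalloprotease of mesenchyme, had 5.36 and 2.85 CPM at P12, 46.9, 61.9 and 48.9 CPM in Coch + Tmx P26, 64.3 and 50.8 CPM in Coch + Tmx P33 and 55.3 CPM in Coch P33, and was called in every alternative (3.74, SE 0.33, adjusted p = 8.41e-05). Macrophage barcodes had 32.5 CPM of it later. Ces1d, a lipid hydrolase, rose from 5.36 and 7.59 CPM to 32.4 to 94.4 CPM (3.44, adjusted p = 0.0013) and Nr1d1, the clock repressor REV-ERB alpha, from 14.1 and 15.2 CPM to 36.2 to 97.2 CPM (2.40, adjusted p = 0.00363). Gstm2, a glutathione transferase with close copies, Gfra4, a GDNF family receptor, Hspa1a, a heat shock protein, and Lgals3bp were also among the 12 largest rises, with later means of 65.1, 60.7, 108 and 90.1 CPM and P12 means of 13.3, 10.0, 17.3 and 12.4 CPM. Later macrophage barcodes had 161 CPM of Lgals3bp. S100a8, a neutrophil protein, rose from 3.35 and 6.64 CPM to 33.3 to 96.5 CPM (3.76). In macrophage barcodes it stood at 3754 CPM at P12 and 20796 CPM later. Those barcodes were chosen by Ptprc and macrophage markers without excluding neutrophils, so levels given for them may not be those of macrophages alone.

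Calls in the remaining lists stand beside the 2.02% of all genes tested that passed. They were 7.14% of retinoid genes, 10% of chemokines and cytokines and 5.26% of the BMP, WNT and TGF-beta list. Of stress genes they were 11.1% and of collagen-processing genes 6.25%. Most of these shares rest on 1 gene. Of 14 retinoid genes tested Aldh1a1, which also makes retinoic acid, rose from 61.6 and 29.4 CPM to 85.5 to 151 CPM (1.33, SE 0.30, adjusted p = 0.0377), and the list's median was 0.05. None of 19 mesenchymal transcription factors (median -0.13) and none of 7 solute transporters (median 0.51) passed. Lists of this size can hold no call when 2.02% of all genes pass. Of 10 chemokines and cytokines, whose median was 1.004, Cxcl12 rose (1.19, adjusted p = 0.0343), with a later macrophage level of 73.5% of that in members, and of 19 genes of the BMP, WNT and TGF-beta pathways Bmp2 did, from 16.7 and 15.2 CPM to 29.5 to 76.7 CPM (1.80, adjusted p = 0.018). Of 18 immediate early and stress genes Hspa1a and Mt1 rose. Sparc, which binds collagen, was the only one of 16 collagen-processing genes called, and it fell (-1.02, adjusted p = 0.0383).

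Between the induced groups, Coch + Tmx P33 was compared with Coch + Tmx P26 in a fit of all 8 libraries. Of 8931 genes tested, 36 (0.403%) passed, 33 (0.369%) higher and 3 (0.0336%) lower at P33. The 8 largest rises named by rule, Folr2, Ccl12, F13a1, Lyve1, Lyz2, Cd68, C1qc and Ms4a7, are genes known from macrophages, and 8 of the 9 macrophage markers tested passed. Folr2 had no UMI in any Coch + Tmx P26 library and 56.9 and 54.4 CPM in Coch + Tmx P33, and Lyz2 46.9, 41.3 and 29.4 CPM against 341 and 1681 CPM. Without the library labelled Coch + Tmx P26 replicate 3, 13 genes passed, all higher at P33 and all among the 36, and without Coch + Tmx P33 replicate 1 there were 102. Without the 66 members with 3 or more macrophage UMIs, 0 genes passed edgeR's test, with 425 at an unadjusted p under 0.05. Those members were chosen by the 9 macrophage markers, of which 8 are among the 36, so the loss of these calls was built in. Of the 17 named or listed genes, 6 could still be fitted. Where the transcripts came from was not tested. The genes that were lower, Hbb-bt (-2.26, adjusted p = 0.0399), AY036118 (-2.53, 0.0489) and Gm10260 (-1.50, 0.0462), are a hemoglobin gene, a ribosomal RNA-like transcript and a ribosomal protein-like gene model.

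No gene of the retinoid, collagen, proteoglycan, complement, MHC class I or IGF lists passed between these groups. Lists of 8 to 15 tested genes can hold no call when 0.403% of all genes pass. Of 22 interferon-response genes Ifi27l2a passed. None of the 7 rule genes passed in members chosen without it, with the lowest adjusted p at 0.690 for Lmntd1. Uninduced Coch P33 was 1 library and was not tested, and it stood beside the induced P33 libraries at 4204 CPM of Dcn (3503 and 8824), 292 CPM of Col1a2 (396 and 316), 147 CPM of Hgd (158 and 160) and 302 CPM of Aldh1a2 (230 and 303), the last pair of genes in members chosen without them.

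Whether the change with age differed between members and the other stromal barcodes was tested as an interaction with library as a block. Of 9672 genes tested, 9 passed (0.0931%), and 5 (0.0517%) had a higher change in members and 4 (0.0414%) a lower one. Cldn11 went from 709 and 1252 CPM at P12 to 1259 to 2171 CPM in members, while it went from 243 and 773 CPM to 114 to 347 CPM in the other stromal barcodes (difference in log2 fold change 1.80, SE 0.31, adjusted p = 0.0383). Aard behaved alike, with a mean of 429 CPM at P12 and 728 CPM later in members and 241 and 100.5 CPM in the others (1.95, SE 0.31, adjusted p = 0.028). Over pooled members, Cldn11 and Aard had 765 and 493 CPM with 3 of the rule genes and 1416 and 604 CPM with 4. The mix of members by number of rule genes varied among libraries, as given above, and its part in these differences was not tested. Gap43, a growth-cone protein, averaged 107 and 64.4 CPM in members and 62.9 and 7.55 CPM in the others (2.48, adjusted p = 0.0383).

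Chad, a collagen-binding leucine-rich protein of cartilage, fell from 24.8 and 51.3 CPM to 0 to 4.43 CPM in members and averaged 126 and 91.5 CPM in the others (-3.32, SE 0.48, adjusted p = 0.0237), with 23.8 CPM in macrophage barcodes of P12. Mgp averaged 44.7 and 12.1 CPM in members and 510 and 1064 CPM in the others (-2.76, adjusted p = 0.0282). Piezo2 (-3.14, adjusted p = 0.0334) and 1500015O10Rik (-3.06, adjusted p = 0.0237) were the other genes with a lower change. For the myelin gene Mobp (2.51, SE 0.44, adjusted p = 0.0387), the other stromal barcodes had 721 CPM in 1 Coch P12 library and 5.16 CPM in the other. Without the library labelled Coch + Tmx P26 replicate 3 or without Coch P12 replicate 2, 0 of the 9 passed edgeR's test, with 538 and 325 genes at an unadjusted p under 0.05. With DESeq2, Chad, 1500015O10Rik, Aard and Cldn11 kept their calls.

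Most of the changes with age described above were not shown to be particular to members. Nrep averaged 515 CPM at P12 and 45.5 CPM later in the other stromal barcodes, and its change differed from that in members by 0.24 (SE 0.27, adjusted p = 0.975). Serping1 (-0.55, adjusted p = 0.885) and Col15a1 (1.78, adjusted p = 0.207) did not pass either. Dcn, Col1a2, Col3a1 and Ogn had helped to choose the other stromal barcodes and the rule genes the members, so none of these entered that test.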

How the data were processed

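Single cells of 8 organ of Corti preparations were profiled with 10x Chromium 3′ v2 chemistry. The deposited values are raw UMI counts per gene and barcode, which the authors made by aligning reads to mm10 with Cell Ranger (named in the submitters' processing notes; version not given in the sources used here). The study's later removal of small, large and cycling cells was not applied. The files list 27998 genes, and no column of values was left unassigned.

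Groups and replicate numbers came from the labels. Members were chosen by the rule given above, and the members, gene lists and comparisons were chosen with earlier results of these data known. Likely doublets were scored with scrublet in scanpy 1.11.5 at 0.8% per 1000 barcodes. They were kept, 4 members among them, and left out as an alternative. UMIs were summed per library over at least 10 members, and the sums were tested in R 4.3.3 with edgeR 4.0.16 (TMM scaling, filterByExpr, quasi-likelihood test, Benjamini-Hochberg adjustment over all genes tested, threshold 0.05). The 7 rule genes and Ptprc, Pecam1 and Epcam were left out of these tests. Log2 fold changes are from these fits and positive where the later group, P33 or members were higher. CPM is per 1000000 UMIs of the summed barcodes. Because the 3′ end is counted, levels of different genes are not compared.

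Named genes were those of 32 lists past the threshold, the 12 largest log2 changes in each direction with age (without overlap, at least 50 CPM in the higher group), the 8 largest in the other comparisons and the 20 largest ratios against other stromal barcodes. The interaction genes, of which 1 is not reported here, the genes lower than in other stromal barcodes and the macrophage-barcode levels were added after their values were seen. Shares were compared by exact permutation tests, with Clopper-Pearson intervals that cover counting error only. Alternatives were DESeq2 1.42.0, no filter on low counts, each library left out, a replicate block, at least 4 of 7 genes, under 10% mitochondrial UMIs, at least 20 cells, thinning to 1000, 2000 or 4000 UMIs and other sets of later libraries. Leaving out members with 3 or more macrophage UMIs or with over 20 Otor and Rarres1 UMIs per 10000, and the tests of rule genes, were chosen after seeing the data. The fits were tested on simulated data.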

Additional observations from a re-analysis of the deposited data

Results flagged for a closer look

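In all, 57 values were checked for a library standing apart among the 6 later libraries (the share of members, list sums and the genes named by rule with age). Chance alone gives about 1 in 20 for separate values. These were not separate, since they share the same libraries and Rtp4 and Ifi27l2a also count in the interferon-response sum. Past Dixon's 95% critical value lay 8 values, a count that cannot be set against that rate. Coch + Tmx P33 replicate 2 was the highest for 6 of them. It had 17974 summed CPM of interferon-response genes, 4635 of MHC class I genes and 1564 of chemokines and cytokines, and 396 CPM of Rtp4, 878 CPM of Ifi27l2a and 330.3 CPM of Ogn. This library also had the highest summed CPM of macrophage markers in members, and the part of these cells in the other values was not tested in that library alone.

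Coch P33 was highest for neuron markers, with 78.6 summed CPM, and Coch + Tmx P26 replicate 2 for Col2a1, with 76.7 CPM. Over the later libraries together, macrophage barcodes had 49.7 CPM of Col2a1 and members a mean of 37.1 CPM.

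The change with age differed between members and other stromal barcodes for 9 genes by the interaction test. The differences in log2 fold change of those named were 2.51 for Mobp, 2.48 for Gap43, 1.95 for Aard and 1.80 for Cldn11, and -3.32 for Chad, -3.14 for Piezo2, -3.06 for 1500015O10Rik and -2.76 for Mgp.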

How the results depend on the processing

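The count of genes changed with age (160) was 613 with no filter on low counts, 80 with at least 4 of the 7 genes, 72 after thinning, 100 with the 5 induced libraries alone as the later ages, 82 with the 3 P33 libraries, and 22 to 195 with each library left out. The fall to 22, without Coch P12 replicate 1, left 9.09% of calls higher against 53.1%. Of 1046 repeats of the named or listed age genes, 860 kept their call, 186 lost it and 0 reversed, and 7 of 55 genes (Adam33, Col15a1, Col1a2, Col2a1, Col9a1, Fbn2 and Nrep) kept it in all that could be fitted.

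The count for P33 against P26 (36) was 165 with no filter, 0 after thinning (204 genes at an unadjusted p under 0.05), 0 without members with macrophage transcripts, and 13 to 102 with each library left out. The interaction count (9) was 171 with no filter, 14 with at least 4 of the 7 genes and with other stromal barcodes of 0 to 2 genes, 36 under 10% mitochondrial UMIs, 29 after thinning, 15 without macrophage transcripts, 26 without members rich in Otor and Rarres1, and 0 to 50 with each library left out.

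Samples with the same replicate number had weak correlations of mixed sign between their deviations (0.09, 0.03, -0.06, -0.14 and 0.14 in pairs of groups over 6972 genes). In a group of 2 libraries the deviations mirror each other, so these few values do not settle whether the numbers pair libraries. With the replicate number as a block, without Coch P33, whose label has no number, the counts were 89 with age (54 higher, 35 lower), 18 for P33 against P26 and 2 for the interaction.

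Of the rule genes, the log2 fold change of Aldh1a2 ran from -0.10 (reversed, without Coch P12 replicate 1) to 0.38 with each library left out. That of Gpr83 ran from -0.28 (reversed, with Coch + Tmx P26 replicate 3, the library without an Atoh1 rise, left out) to 0.33, and was -0.05 without Coch P12 replicate 1. None of these values passed the threshold. The share of members kept its direction in every alternative. With 2 libraries at P12, 41 to 123 members per library and later members at lower depth, depth limits low genes most, and a missed call does not show equal levels.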
